A study of Caenorhabditis elegans with 25 samples.

Results

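The genes described here are 10 genes of Caenorhabditis elegans whose products build the eggshell or switch the oocyte into an embryo, followed through all 25 RNA sequencing libraries of the study. They were chosen by name, from what their products are known to do, though earlier results of these data had been seen. All 10 were found among the 45461 gene identifiers of the count files. They are cbd-1 (H02I12.1, chromosome IV), perm-2 (C44B12.1, IV), cpg-1 (C07G2.1, III), cpg-2 (B0280.5, III), chs-1 (T25G3.2, I), egg-1 (B0244.8, III), egg-2 (R01H2.3, III), egg-3 (F44F4.2, II), egg-4 (T21E3.1, I) and egg-5 (R12E2.10, I). None lies on the X chromosome, whose dose differs between XO males and XX hermaphrodites.

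The nematode eggshell is laid down within minutes of sperm entry, from the outside inwards. A vitelline layer that already surrounds the oocyte is followed by a chitin layer, a layer of chondroitin proteoglycans released from cortical granules, and a lipid-rich permeability barrier. The mRNAs and most of the proteins are stored in the oocyte beforehand. A complex at the oocyte cortex, built on the pseudo-phosphatases EGG-3, EGG-4 and EGG-5, holds the chitin synthase CHS-1 and the kinase MBK-2 until the oocyte is activated and the maternal proteins are handed over to the embryo.

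The libraries held total RNA, depleted of ribosomal RNA. It came from distal gonad arms dissected from day 1 adults or from mature sperm collected from cut adult males. The arms were cut at the bend, in late pachytene, so the gonad beyond it was left out. The 9 groups were mes-3 sperm (3 libraries), him-8 sperm (3), mes-3 male germlines (3), him-8 male germlines (4), N2 male germlines (2), M+P- offspring germlines (2), M+P+ offspring germlines (2), fem-2 oogenic germlines (3) and N2 oogenic germlines (3). The replicates are given in the methods as biological. The study used these profiles to ask which genes are expressed in the germ line of males and of wild-type and feminized hermaphrodites. It also asked whether losing a repressive histone mark in the father's germ line changes expression in his sperm and in his offspring.

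N2 is the wild-type strain, and its gonads came from males or from hermaphrodites, which make oocytes as adults, all raised at 20 °C. The him-8 animals (strain CB1489, him-8(e1489)) were also raised at 20 °C and served as a source of males, because the mutation mis-segregates the X chromosome. The mes-3 males (strain SS818) were mes-3(bn35) homozygotes from heterozygous parents carrying the hT2-GFP balancer, again at 20 °C, so they inherited maternal MES-3 and made none of their own. MES-3 is a subunit of the worm Polycomb complex that methylates lysine 27 of histone H3. The fem-2 animals (strain DH245, fem-2(b245ts)) make oocytes and no sperm. They were kept at 15 °C and moved to 20 °C at the L4 larval stage for 24 h.

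Both offspring groups (strain SS1167) were raised at 15 °C and had the same genotype, homozygous for mes-3(bn35) and for fem-2(b245ts). Their mothers were mes-3/hT2-GFP; fem-2 in both groups. They differed in their fathers, which were mes-3 homozygotes for M+P- offspring and mes-3/hT2-GFP heterozygotes for M+P+ offspring, both in the fem-2 background.

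A library held between 1078195 and 18617543 counts assigned to genes. The sum over the 10 genes ranged between 856 counts (him-8 sperm replicate 2) and 294477 counts (N2 oogenic germline replicate 3). Markers of spermatogenic cells summed to between 2349 and 5428 CPM (counts scaled to the library's total) in the male and sperm libraries. They were between 5.99 and 9.62 CPM in the fem-2 and N2 oogenic libraries and between 11.4 and 23.3 CPM in the offspring, so germ cell type followed the labels. RNA levels of mes-3 itself overlapped between mes-3 male germlines (26.9 to 40.2 CPM) and the him-8 and N2 male germlines (13 to 30.8 CPM) and so do not check those labels. Replicate 2 of the him-8 male germlines stood apart from the other him-8 males, with muscle markers at 2542 CPM against 118 to 141 CPM, intestine markers at 495 CPM against 24.5 to 51.1 CPM and hypodermis markers at 913 CPM against 32.3 to 60.6 CPM. Sperm libraries carried 2093 to 5652 CPM of muscle markers.

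Together the 10 genes took 1.68 ± 0.04% of all gene counts in fem-2 oogenic germlines and 1.59 ± 0.08% in N2 oogenic germlines (mean ± SD, n = 3 each). Offspring germlines spent 1.10 ± 0.08% (M+P-) and 1.23 ± 0.04% (M+P+) on them (n = 2 each). In male germlines it was 0.138 ± 0.025% in mes-3 (n = 3), 0.141 ± 0.027% in him-8 (n = 4) and 0.115 ± 0.036% in N2 (n = 2). Sperm had the least, with 0.106 ± 0.029% in mes-3 and 0.0626 ± 0.0236% in him-8 (n = 3 each). The oogenic libraries thus spent an order of magnitude more of their reads on the shell and activation genes than the male ones. In these bulk samples, fewer cells of a type and less RNA per cell cannot be told apart.

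**Figure D1:**
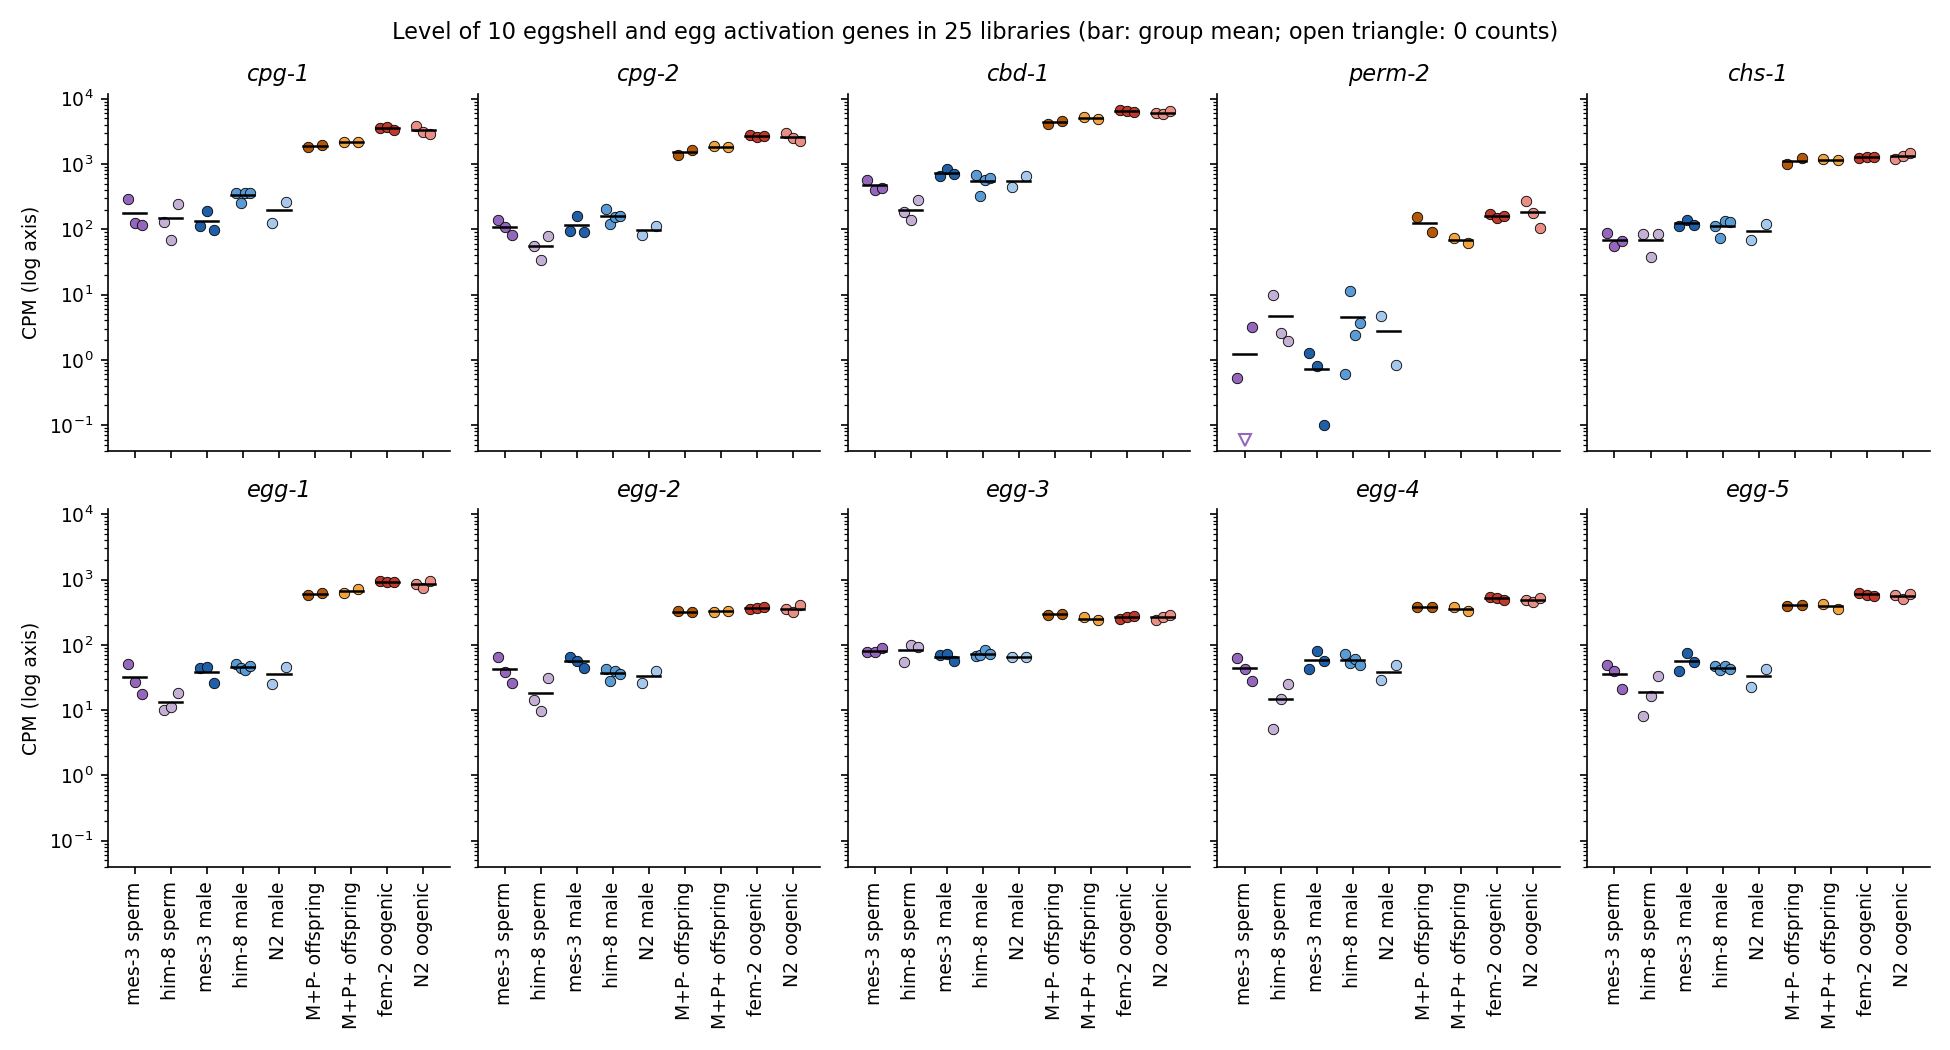
Level of each of the 10 genes in each library, in CPM on a log axis, 1 panel per gene, with groups along the horizontal axis (sperm, male germlines, offspring, oogenic germlines). Points are libraries and bars mark group means. In every panel the offspring and oogenic libraries lie above all male and sperm libraries, and egg-3 has the smallest gap between them.

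To compare levels between genes, RPKM was used, which divides the count by gene length and by the library total, with lengths recovered from the deposited RPKM columns. In N2 oogenic germlines the highest RPKM levels belonged to cpg-1 (1717 ± 285), cpg-2 (1490.3 ± 219) and cbd-1 (1441 ± 73.7 RPKM, SD, n = 3), whose products make up the proteoglycan and vitelline layers. The spreads of these 3 overlapped. Below them came egg-1 at 472 ± 62.2 RPKM, chs-1 at 306 ± 30.5 RPKM and perm-2 at 256 ± 116 RPKM. The cortical regulators were lowest, with egg-5 at 238 ± 23.3, egg-4 at 207 ± 12 and egg-3 at 145 ± 14.1 RPKM, and egg-2 lay among them at 199.7 ± 23.7 RPKM. The fem-2 oogenic germlines gave nearly the same order, with cpg-1 at 1865 ± 99.9 RPKM at the top and egg-3 at 145 ± 5.90 RPKM at the bottom.

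The order was different in male cells. In him-8 sperm egg-3 reached 45.5 ± 13.1 RPKM, next to 47.7 ± 17.1 RPKM for cbd-1 and 77.8 ± 47 RPKM for cpg-1 (SD, n = 3), while egg-4 was at 6.36 ± 4.28 RPKM. By group mean, the gene with the lowest RPKM level in oogenic germlines was therefore among the highest 3 in him-8 sperm. The mean share of egg-3 in the summed RPKM of the 10 genes was 19.2% in him-8 sperm and 11.7% in mes-3 sperm. The him-8 sperm libraries had 13.5, 30.3 and 13.9%, so replicate 2 raised that mean. In replicate 1 cpg-2 (14.1%) lay above egg-3. The mes-3 sperm libraries had 7.84 to 15.0%. It was 7.7% in mes-3, 7.3% in him-8 and 8.9% in N2 male germlines, against 2.1% in fem-2 and 2.3% in N2 oogenic germlines.

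Male germlines were compared with oogenic germlines in 2 pairings, N2 males against N2 hermaphrodites and him-8 males against fem-2 animals. All 10 genes were lower in male germlines in both pairings, between 2.13-fold (egg-3) and 34.2-fold (perm-2) in N2 and between 2.59-fold (egg-3) and 29.7-fold (perm-2) for him-8 against fem-2. A gene was called when its Benjamini-Hochberg adjusted p from edgeR's quasi-likelihood test, adjusted over all genes tested, was under 0.05. In the N2 pairing 22% of the 8574 genes tested were called lower in males and 38.3% higher. In the other pairing 30.4% of 9244 genes were called lower and 33.8% higher. The median log2 fold change of the 10 genes was -3.04 in N2, beside 0.23 over all genes tested, and -3.05 for him-8 against fem-2, beside 0.03. The genes were chosen for their role in oocytes, so their direction here describes them and is no independent test.

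Among the outer layers, cbd-1 encodes a chitin-binding protein of the vitelline layer. It had 442 and 661 CPM in N2 male germlines, against 5932, 5813 and 6398 CPM in N2 oogenic germlines. The him-8 male germlines had 677, 325, 577 and 604 CPM, against 6687, 6535 and 6226 CPM in fem-2 oogenic germlines. No male library came near an oogenic one, and the lowest male value was that of him-8 replicate 2, the library rich in muscle RNA. The log2 fold change was -2.54 ± 0.21 in N2 (SE, edgeR adjusted p = 1.44e-05) and -3.09 ± 0.22 for him-8 against fem-2 (adjusted p = 3.6e-06).

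The gene perm-2, needed for the vitelline layer to hold together and for an intact permeability barrier, was nearly silent in males. It had 4.73 and 0.820 CPM in N2 male germlines, which are 12 and 2 counts, against 274, 178 and 106 CPM in N2 oogenic germlines. In him-8 male germlines it had 0.613, 11.4, 2.39 and 3.64 CPM, against 172, 151 and 158 CPM in fem-2 oogenic germlines. The highest male value, 21 counts, came from him-8 replicate 2. The log2 fold change was -5.09 ± 0.70 in N2 (edgeR adjusted p = 0.000323) and -4.89 ± 0.60 for him-8 against fem-2 (adjusted p = 0.000114). With so few male counts the size is loose. In N2 it was -6.94 without male replicate 1 and -4.26 without male replicate 2, and for him-8 against fem-2 it was -5.49 without him-8 replicate 2.

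The chondroitin proteoglycans CPG-1 and CPG-2 carry both chondroitin chains and chitin-binding domains, and together they are needed for a working shell. For cpg-1, N2 male germlines had 126 and 262 CPM, against 3870.4, 3042 and 2854 CPM in N2 oogenic germlines. In the other pairing cpg-1 had 359, 249.8, 356 and 361 CPM in him-8 males, against 3545, 3719.6 and 3341 CPM in fem-2 animals. Its log2 fold changes were -3.18 ± 0.33 in N2 (edgeR adjusted p = 5.63e-05) and -2.93 ± 0.14 for him-8 against fem-2 (adjusted p = 2.85e-07).

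For cpg-2, N2 male germlines had 82.7 and 113 CPM, against 2981, 2533 and 2225 CPM in N2 oogenic germlines. It had 203, 118.9, 152 and 162 CPM in him-8 males, against 2793, 2593 and 2685 CPM in fem-2 animals. The log2 fold changes of cpg-2, -3.81 ± 0.25 in N2 and -3.59 ± 0.17 for him-8 against fem-2, lay below those of cpg-1 in both pairings. The chitin synthase gene chs-1, which supplies the polymer these proteins bind, had 67.8 and 121 CPM in N2 male germlines, against 1195, 1328 and 1459.6 CPM in N2 oogenic germlines. In him-8 males it had 112, 72.5, 136 and 129 CPM, against 1236, 1289.6 and 1278 CPM in fem-2 animals. It was 7.49-fold lower in N2 males (edgeR adjusted p = 1.44e-05) and 8.08-fold lower in him-8 males (adjusted p = 9.26e-07). Its exons overlap those of T25G3.3 by 5 bases on the same strand, and that neighbour had 23.9 to 253 CPM. A few reads there may be left out or assigned to either gene.

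EGG-1 and EGG-2 are paralogous membrane proteins with LDL-receptor repeats, known from their role at the oocyte surface in fertilization. For egg-1, N2 male germlines had 24.8 and 45.9 CPM, against 854, 738 and 962 CPM in N2 oogenic germlines. In him-8 males it had 51.5, 43.8, 41.3 and 46.8 CPM, against 940.0, 915 and 931 CPM in fem-2 animals. It was 12.9-fold lower in N2 males and 14.4-fold lower in him-8 males (edgeR adjusted p = 6.13e-06 and 4.04e-08). For egg-2, N2 male germlines had 26.4 and 40.2 CPM, against 352, 318 and 402 CPM in N2 oogenic germlines. In him-8 males it had 42.9, 27.6, 39.4 and 36.1 CPM, against 359, 364 and 381 CPM in fem-2 animals. Its folds were smaller, 5.71-fold lower in N2 males and 7.17-fold lower in him-8 males (edgeR adjusted p = 1.08e-05 and 2.37e-07). Both genes had similar CPM levels in males, and egg-1 was the higher of the pair in every oogenic library. An opposite-strand gene, B0244.9, shares 42 bases of exon with egg-1 and had 42.2 to 110 CPM in male and sperm libraries but at most 1.04 CPM in oogenic and offspring ones. Whether counting used strand is not given in the sources used here, so part of the male egg-1 reads could belong to it. Reads from near-identical stretches of paralogs may also be left out or assigned to either.

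Of the regulators, egg-3 kept the most RNA in males. It had 65.0 and 64.8 CPM in N2 male germlines, against 237, 264 and 288 CPM in N2 oogenic germlines. The him-8 male germlines had 67.1, 68.7, 82.7 and 71.4 CPM, against 252, 264 and 273 CPM in fem-2 oogenic germlines. The groups did not overlap, and the log2 fold change was -1.09 ± 0.15 in N2 (edgeR adjusted p = 0.000376) and -1.37 ± 0.11 for him-8 against fem-2 (adjusted p = 8.87e-06). In CPM, the mean level of egg-3 was 24.7% of the N2 oogenic level in N2 males. In him-8 males it was 27.6% of that same N2 level, whereas perm-2 stood at 1.49% and 2.42%. The fold changes use edgeR's scaling between libraries, and these percents do not. With total counts in place of that scaling, the log2 fold change of egg-3 in N2 was -2.02.

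EGG-4 and EGG-5 are near-identical pseudo-phosphatases that bind MBK-2 and hold it until the oocyte is activated. For egg-4, N2 male germlines had 28.8 and 49.2 CPM, against 491, 459 and 515 CPM in N2 oogenic germlines. It had 72.9, 52.4, 59.8 and 49 CPM in him-8 males, against 548, 528 and 493 CPM in fem-2 animals. For egg-5, N2 male germlines had 22.8 and 43.1 CPM, against 576, 500.0 and 607 CPM in N2 oogenic germlines, and him-8 males had 41.1 to 48.1 CPM, against 563 to 630.4 CPM in fem-2 animals. The folds were 6.68 (egg-4) and 9.10 (egg-5) lower in N2 males, and 6.35 and 9.36 lower in him-8 males, with edgeR adjusted p of at most 1.07e-05. Reads from stretches that these paralogs share may be left out or assigned to either, so their separate levels are uncertain.

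All 10 calls held in all 11 alternatives of the N2 pairing and all 13 of the other. Scaling by total counts in place of TMM factors, edgeR's trimmed-mean scaling, shifted the median of all genes by -0.93 (log2) in N2 and -0.48 for him-8 against fem-2. It turned the calls to 2312 higher and 4242 lower in N2 (3287 and 1886 with TMM) and to 2561 and 4272 in the other pairing (3125 and 2811). On that scale the 10 genes were 4.05-fold to 64.4-fold lower in N2 males and 3.62-fold to 41.9-fold lower in him-8 males. The libraries of him-8 and fem-2 carried different run tags, and the animals differed in strain and growth temperature. Sex cannot be told apart from these there. Runs are known here only from such tags, as the labels give no run or date. Muscle markers were at 388 to 1279 CPM in N2 male germlines, against 57.5 to 105 CPM in N2 oogenic germlines, and all 10 genes were also called without him-8 replicate 2. Within the single run that held an N2 male and oogenic libraries (1 male against 1 N2 and 1 fem-2 library), the 10 genes had negative log2 fold changes, between -1.61 (egg-3) and -6.82 (perm-2). The spread in that fit came from the 2 oogenic libraries, and the lone male library was assumed to vary like them.

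**Figure D2:**
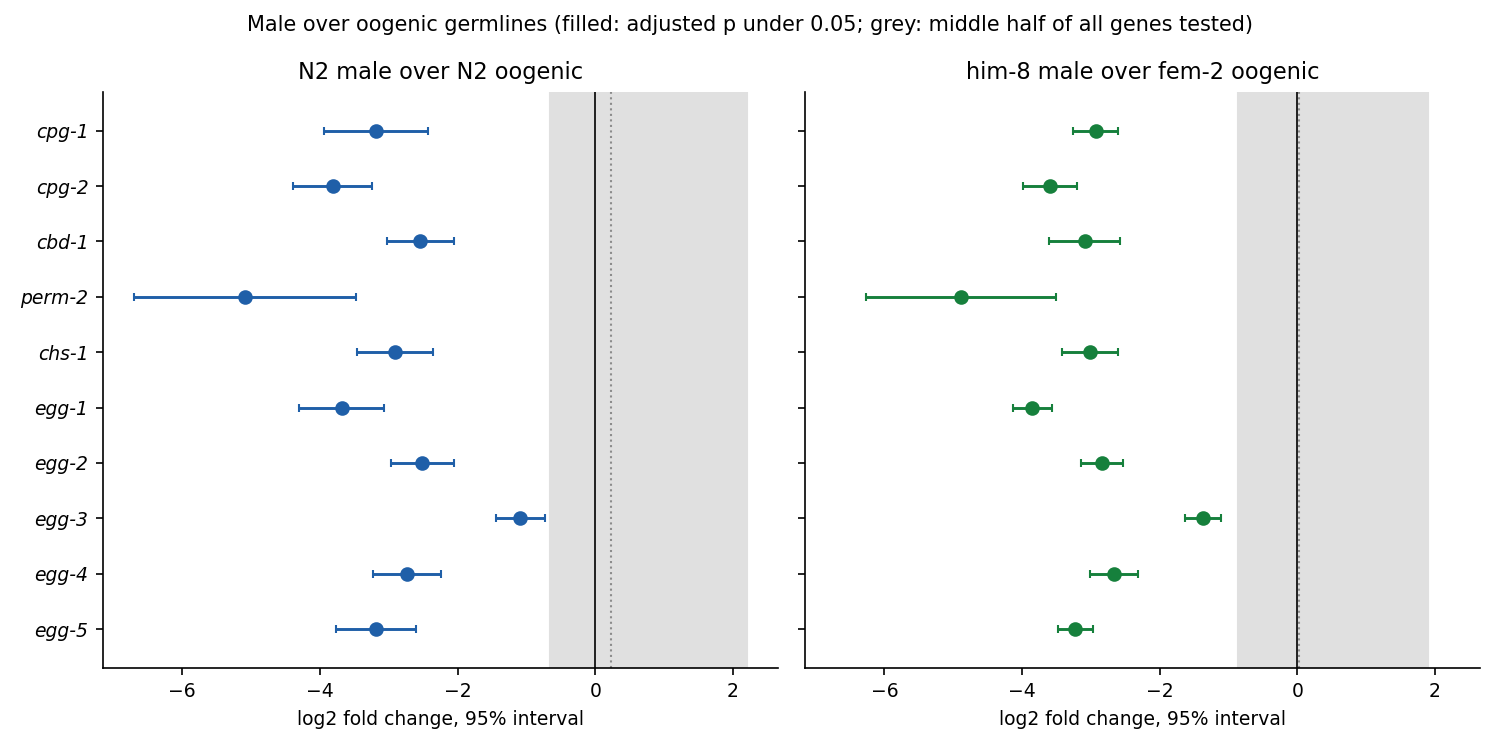
Log2 fold change of each gene, male over oogenic germlines, for N2 (left panel) and for him-8 against fem-2 (right panel), with 95% intervals. The dotted line is the median over all genes tested and the grey band their interquartile range. All 10 genes lie below 0 in both panels, with egg-3 nearest to 0 and perm-2 farthest with the widest interval.

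The size of the male deficit was not distinguishable between the pairings. Testing the difference (N2 minus him-8/fem-2) called 0 of the 10 genes and 1 of 9916 genes, or 0.0101%, with edgeR, while DESeq2 called 10 genes and none of the 10. The differences ran between -0.48 (cpg-1, 95% interval -1.17 to 0.22) and 0.29 (cbd-1, -0.43 to 1.02).

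Ratios within a library need no scaling between libraries. The RPKM ratio of egg-1 to egg-2 averaged 1.27 (1.04 to 1.57) in him-8 male germlines, against 2.50 (2.42 to 2.60) in fem-2 oogenic germlines. It averaged 1.03 (0.932 to 1.13) in N2 male germlines, against 2.36 (2.30 to 2.41) in N2 oogenic germlines. In mes-3 male germlines it was 0.684 and in sperm 0.722 (mes-3) and 0.809 (him-8). It was above 1 in all 4 him-8 male libraries and below 1 in all 3 mes-3 male libraries, and every male and sperm library lay below every oogenic one. In him-8 and N2 males the ratio of cpg-1 to cpg-2 ran the other way. It was 1.93 in him-8 males, against 1.2 in fem-2 animals, and 1.76 in N2 males, against 1.15 in N2 hermaphrodites. In mes-3 males it was 1.05 (0.970 to 1.09), below every N2 and fem-2 oogenic library. Sperm had 1.42 (mes-3) and 2.27 (him-8). The ratio of egg-4 to egg-5 was 1.30 in him-8 males, against 0.883 in fem-2 animals. N2 males had 1.14 to 1.26, mes-3 males averaged 1.05 and mes-3 sperm 1.24. In him-8 sperm it was 0.767 (0.624 to 0.905), below the fem-2 mean, so not all male and sperm groups shared this shift. The ratio of cbd-1 to egg-3 was 3.27 in him-8 males, against 10.7 in fem-2 animals. For each of these 4 ratios the him-8 and fem-2 libraries did not overlap, and a two-sided exact permutation test gave p = 0.0571 (0.0571 adjusted over the 4), the smallest that 4 against 3 libraries allow. The 4 ratios were picked after the levels were seen.

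**Figure D3:**
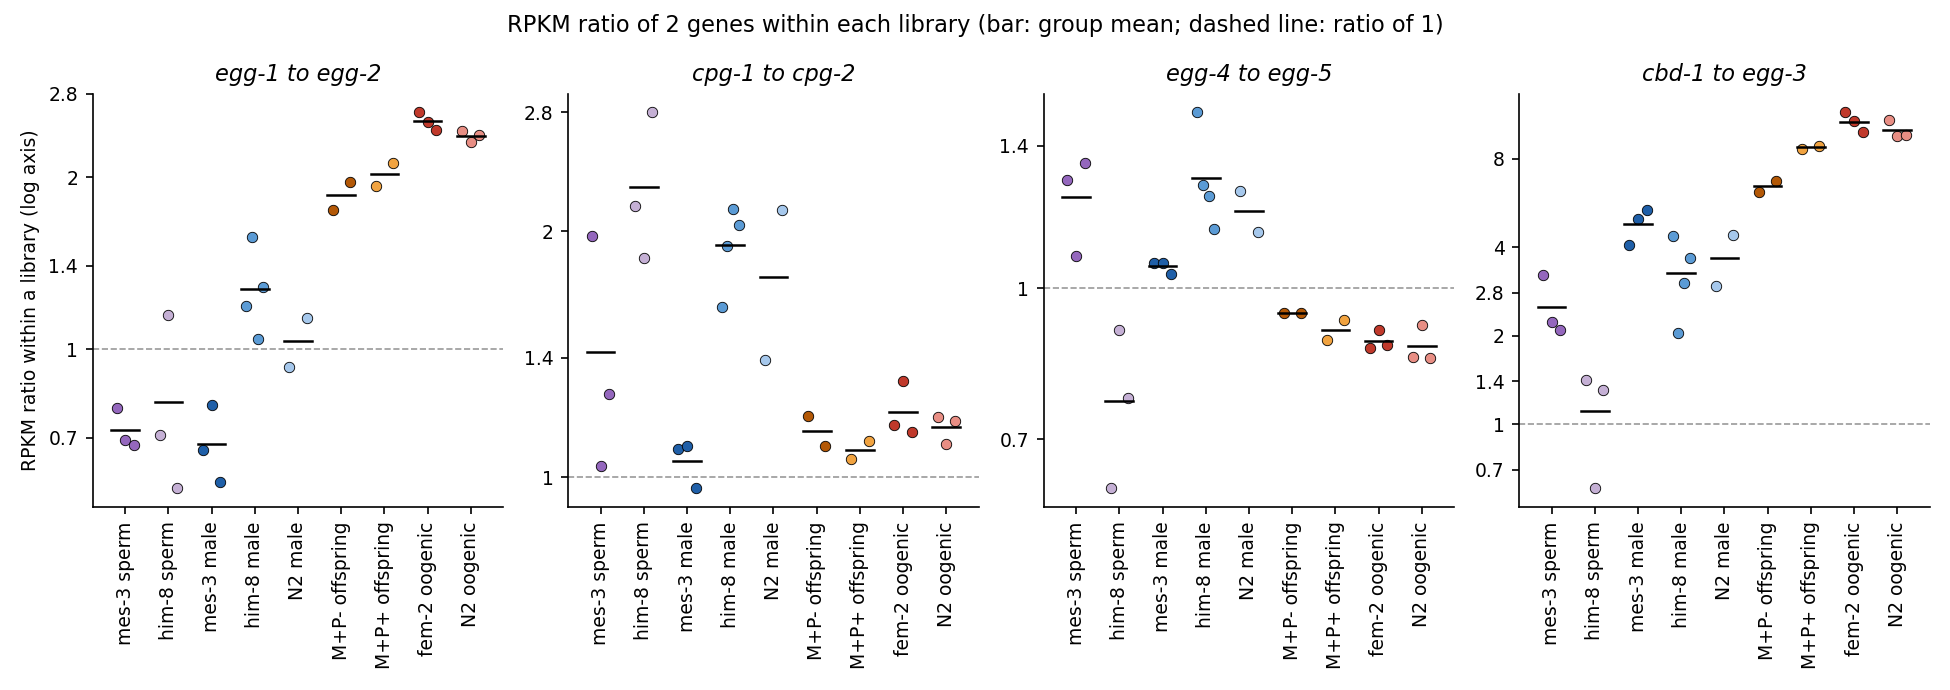
RPKM ratio within each library for egg-1 to egg-2, cpg-1 to cpg-2, egg-4 to egg-5 and cbd-1 to egg-3, on log axes, by group, with a dashed line at a ratio of 1. Points are libraries and bars group means. The ratio of egg-1 to egg-2 lies between 2.30 and 2.60 in oogenic libraries and between 0.572 and 1.57 in male and sperm libraries.

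The 2 oogenic groups and the 2 control male groups were also set against each other, since they differ in strain. Neither fit paired libraries by replicate number. Between fem-2 and N2 oogenic germlines edgeR called 0 of the 10 (0 at an unadjusted p under 0.05 and 0 by DESeq2) and 0.165% of 7874 genes (13 genes), DESeq2 called 27 genes, and the log2 fold changes ran between -0.13 (perm-2) and 0.15 (egg-1), with 95% intervals all inside -0.80 to 0.54. The him-8 and N2 male germlines gave 0 calls with edgeR, among the 10 genes (2 at an unadjusted p under 0.05 and 0 by DESeq2) and among all 8303 tested (0%). Over all genes 232 had an unadjusted p under 0.05 and DESeq2 called 14. The largest log2 fold changes were those of the proteoglycan genes, 0.71 (95% interval 0.05 to 1.37) for cpg-1 and 0.63 (0.10 to 1.16) for cpg-2, and every him-8 library lay above both N2 libraries for cpg-2.

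Of the 10 genes, cpg-1 alone was called between mes-3 and him-8 male germlines. Against him-8 male germlines, edgeR called 1 of the 10 genes lower and none higher in mes-3 male germlines, where 15.8% of 8930 genes were called lower and 12.2% higher. For cpg-1, mes-3 male germlines had 112, 190.3 and 97.2 CPM, against 359, 249.8, 356 and 361 CPM in him-8 male germlines. All mes-3 values lay below all him-8 values, at a log2 fold change of -1.52 ± 0.23 (2.87-fold lower, edgeR adjusted p = 0.003). The call held in all 15 alternatives, with adjusted p of at most 0.0211, and him-8 replicate 2 is the him-8 library closest to the mes-3 values.

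Its partner cpg-2 had 94.9, 159 and 91.5 CPM in mes-3 male germlines, against 203, 118.9, 152 and 162 CPM in him-8 male germlines. The groups overlapped, and the log2 fold change of -0.67 ± 0.22 missed the threshold (edgeR adjusted p = 0.0518), though 6 of 15 alternatives passed it, among them leaving out him-8 replicate 2 (-0.75, edgeR adjusted p = 0.0171). In mes-3 males the RPKM ratio of cpg-1 to cpg-2 was 1.05, against 1.93 in him-8 males. For perm-2 the mes-3 libraries had 1.25, 0.8 and 0.100 CPM, and the interval of its log2 fold change, -5.27 to -0.33, was too wide to give a size (-2.80, edgeR adjusted p = 0.0811). Without a count filter its adjusted p was 0.0286, and with DESeq2 it was 0.0196.

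Vitelline gene cbd-1 had 646, 842 and 699 CPM in mes-3 male germlines, against 325 to 677 CPM in him-8 male germlines, with a log2 fold change of 0.22 (adjusted p = 0.438). The paralogs egg-1 and egg-2 gave -0.45 (95% interval -0.93 to 0.04) and 0.41 (-0.02 to 0.83), and every mes-3 library (44.7 to 65.2 CPM) lay above every him-8 library (27.6 to 42.9 CPM) for egg-2. The other 4 genes gave log2 fold changes between -0.34 (egg-3) and 0.11 (egg-5), with edgeR adjusted p of at least 0.115. Total-count scaling shifted the median gene by 0.20 and turned the calls over all genes to 1710 higher and 989 lower (1092 and 1412 with TMM), and on that scale egg-2 passed as higher (edgeR adjusted p = 0.0494). Hermaphrodite somatic gonad markers summed to 2488 to 3097 CPM in mes-3 male germlines, against 394 to 1428 CPM in him-8 male germlines, and their part in these values was not tested. All mes-3 male libraries carried another run tag than the him-8 male libraries, so genotype cannot be told apart from batch. Against the 2 him-8 libraries of either him-8 run alone, cpg-1 gave -1.48 (edgeR adjusted p = 0.0147) and -1.60 (adjusted p = 0.000188).

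In sperm, where both genotypes shared a run tag, cbd-1 was the gene that was called, and it was higher in mes-3 sperm. It had 577, 405 and 425 CPM in mes-3 sperm, against 181, 139.6 and 279 CPM in him-8 sperm. The groups did not overlap, and the log2 fold change was 0.97 ± 0.22 (edgeR adjusted p = 0.0139). The call did not survive leaving out mes-3 sperm replicate 1 (adjusted p = 0.0739) or him-8 sperm replicate 2 (0.0703). It was the only call among the 9 of the 10 genes that passed the count filter, against 3.22% of 8424 genes called higher and 7.05% lower. The gene that did not pass was perm-2, with 1, 0 and 8 counts in mes-3 sperm and 19, 5 and 6 counts in him-8 sperm.

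The other sperm differences were not called. For egg-4, mes-3 sperm had 62.7, 42.9 and 28.1 CPM, against 5.09, 14.7 and 25.3 CPM in him-8 sperm. The libraries did not overlap, but the log2 fold change of 1.29 ± 0.55 had an edgeR adjusted p of 0.165, on as few as 10 counts in a him-8 library. For cpg-2, mes-3 sperm had 137, 109 and 82.4 CPM, against 54.9, 34.0 and 79.8 CPM in him-8 sperm, again without overlap, with a log2 fold change of 0.70 (adjusted p = 0.192). For egg-1 and egg-2 the log2 fold changes were 1.01 and 0.96, with adjusted p of 0.289 and 0.28. For egg-5 it was 0.67, for cpg-1 0.02, for chs-1 -0.26 and for egg-3 -0.29, with intervals that include 0. The median over the 9 genes was 0.70, beside 0.06 over all genes tested. Total-count scaling shifted the median of all genes by 0.27, with 463 genes called higher and 270 lower (271 and 594 with TMM). Oocyte markers summed to 286 to 506 CPM in mes-3 sperm, against 200.4 to 352 CPM in him-8 sperm, and the hermaphrodite somatic gonad markers to 810.3 to 1090.0 CPM, against 282 to 410.0 CPM. Their part in these values was not tested.

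**Figure D4:**
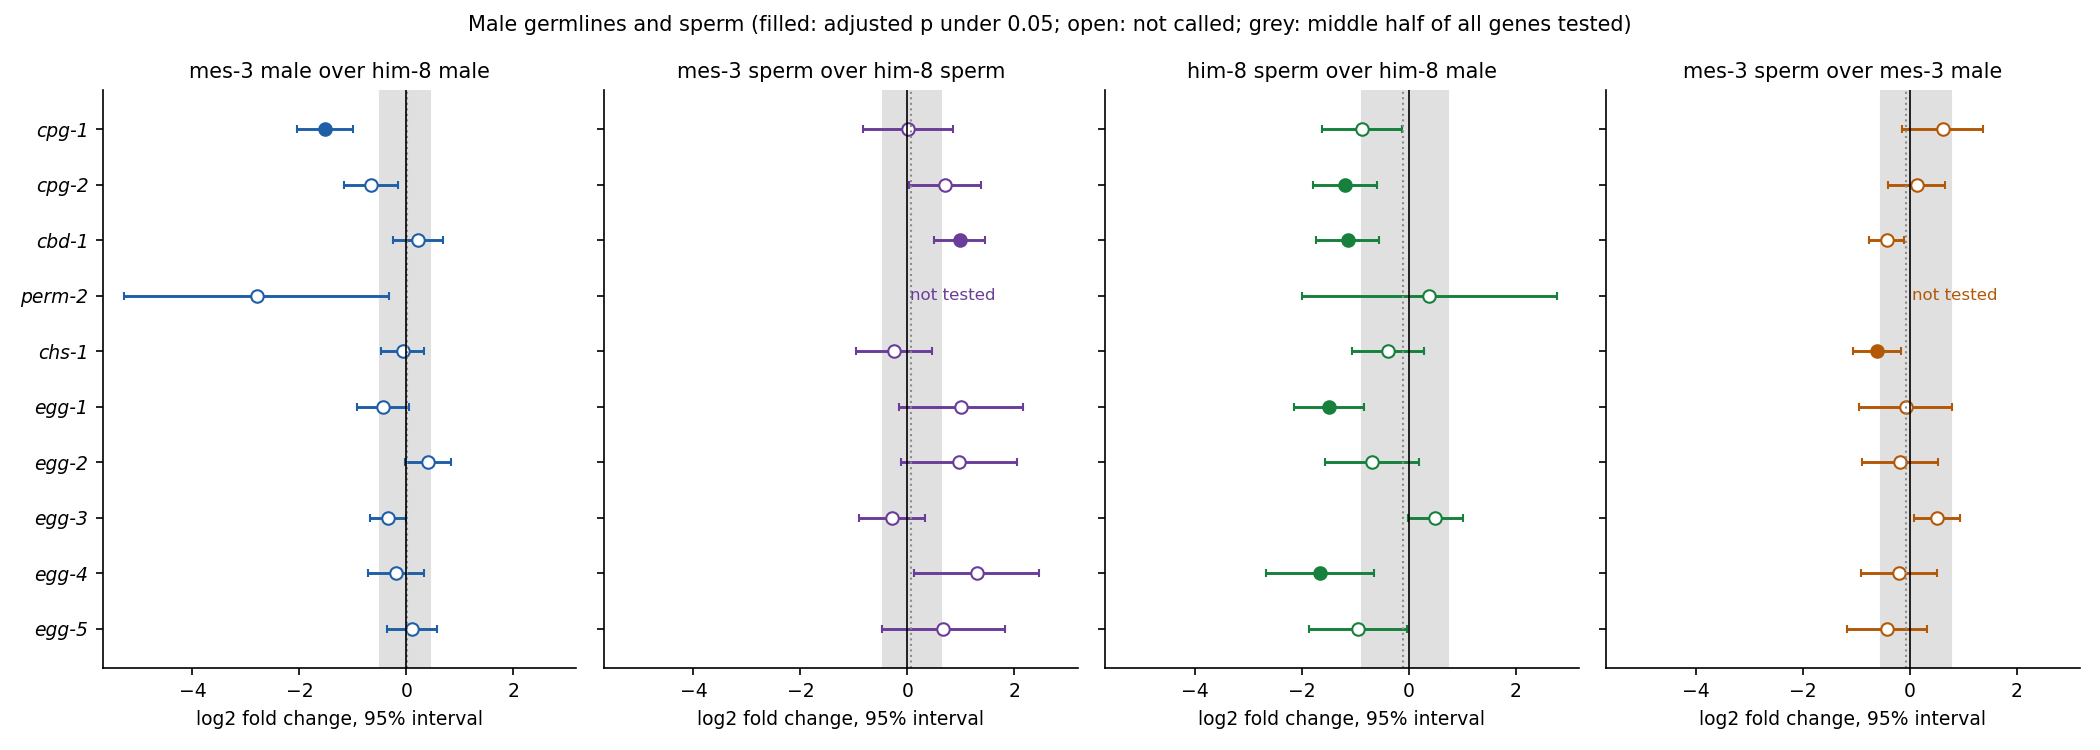
Log2 fold changes of the 10 genes with 95% intervals in the comparisons that involve mes-3 and sperm: mes-3 over him-8 male germlines, mes-3 over him-8 sperm, him-8 sperm over him-8 male germlines, and mes-3 sperm over mes-3 male germlines. Grey bands give the interquartile range of all genes tested and dotted lines their median. cpg-1 lies lowest among the well-measured genes in the first panel, cbd-1 is above 0 in the second and egg-1 and egg-4 lie lowest in the third.

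Whether the mes-3 effect differed between tissues was tested directly. The difference of the effects (sperm minus male germlines) was called for 0 of the 10 genes with edgeR (5 at an unadjusted p under 0.05, as were 1971 of 10129 genes) and for 2.75% of all genes tested (279 genes), while DESeq2 called 824 genes and 1 of the 10, cpg-2. The estimate was 1.54 for cpg-1 (95% interval 0.41 to 2.68, edgeR adjusted p = 0.132), 1.37 for cpg-2 (adjusted p = 0.072), 1.49 for egg-4 (0.172) and 1.46 for egg-1 (0.138). Intervals of 5 genes excluded 0, but none passed after adjustment over all genes. Without him-8 male replicate 2, mes-3 male replicate 2 or him-8 sperm replicate 3, cpg-2 passed (edgeR adjusted p = 0.0358 to 0.0489), and without the last of these cpg-1 passed too (0.0467). Without mes-3 sperm replicate 1 the estimate for cpg-1 was 0.93 (edgeR adjusted p = 0.315).

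Sperm were also compared with the germlines of the same strain, whose arms were cut at the late-pachytene bend. Cells beyond that cut, later in meiosis, were left out of the germline libraries. In him-8 sperm, edgeR called 4 of the 10 genes lower and none higher than in him-8 male germlines, where 14.4% of 8626 genes were called lower and 16.2% higher. For egg-1, him-8 sperm had 10.2, 11.2 and 18.2 CPM, against 51.5, 43.8, 41.3 and 46.8 CPM in him-8 male germlines, 2.81-fold lower (edgeR adjusted p = 0.00819). For egg-4 the values were 5.09, 14.7 and 25.3 CPM in sperm and 72.9, 52.4, 59.8 and 49 CPM in germlines, 3.16-fold lower (adjusted p = 0.0251). Neither pair of groups overlapped.

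The other calls were cpg-2 and cbd-1. For cpg-2, him-8 sperm had 54.9, 34.0 and 79.8 CPM, against 203, 118.9, 152 and 162 CPM in him-8 male germlines (2.28-fold lower, edgeR adjusted p = 0.0137). For cbd-1 the values were 181, 139.6 and 279 CPM in sperm and 677, 325, 577 and 604 CPM in germlines (2.19-fold lower, adjusted p = 0.0147). These 2 calls held in all 12 alternatives, whereas egg-1 passed in 11 of 12 (edgeR adjusted p = 0.0644 with the replicate number as a block) and egg-4 in 8 of 12. For egg-4 the edgeR adjusted p was 0.0577 with that block, 0.0707 without him-8 male replicate 1, 0.062 without him-8 male replicate 3 and 0.0631 without him-8 sperm replicate 2. Of the other 6 genes, egg-5 had the lowest log2 fold change, -0.94 (edgeR adjusted p = 0.102), cpg-1 had -0.87 (adjusted p = 0.074), and egg-3 had the highest that was well measured, 0.50 (95% interval -0.02 to 1.01). The values of egg-3 were 55.4, 99.5 and 92.7 CPM in sperm, against 67.1 to 82.7 CPM in germlines. Without sperm replicate 1 its log2 fold change was 0.67 (edgeR adjusted p = 0.0403), and without sperm replicate 3 cpg-1 (-1.42, adjusted p = 0.0141), egg-2 and egg-5 passed as lower too. For cpg-1 the edgeR adjusted p was also under the threshold with total counts (0.0403), without a count filter (7.08e-05) and without him-8 male replicate 2 (-0.91, adjusted p = 0.0429), and DESeq2 called it (0.0378). The median of the 10 genes was -0.91, beside -0.11 over all genes. Total-count scaling shifted the median of all genes by -0.31, with 992 genes called higher and 1934 lower (1401 and 1242 with TMM). Muscle markers were at 2093 to 5652 CPM in him-8 sperm, against 118 to 2542 CPM in him-8 male germlines. The libraries also carried different run tags. The part of either was not tested.

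In mes-3 sperm against mes-3 male germlines, edgeR called 1 of 9 genes lower and none higher, where 10.4% of 10018 genes were called lower and 19% higher. The call was chs-1, with 87.0, 54.4 and 65.9 CPM in mes-3 sperm, against 113, 141 and 114 CPM in mes-3 male germlines (1.53-fold lower, edgeR adjusted p = 0.0424). It passed in 3 of 11 alternatives, and leaving out any of the 3 germline libraries or sperm replicates 2 or 3 gave edgeR adjusted p of 0.0746 to 0.163. For egg-3 the log2 fold change was 0.52 (95% interval 0.09 to 0.94, adjusted p = 0.0686). It was called higher with RLE factors (edgeR adjusted p = 0.0438) and with DESeq2 (0.0442), which did not call chs-1 (0.0565). For egg-3 all 3 sperm libraries (78.0 to 88.0 CPM) lay above all 3 germline libraries (56.5 to 73.1 CPM). For cbd-1 it was -0.43 (adjusted p = 0.0528). The other 6 genes lay between -0.43 (egg-5) and 0.62 (cpg-1), all with edgeR adjusted p of at least 0.204. Total-count scaling shifted the median gene by -0.20 and gave 1647 genes higher and 1876 lower (1900 and 1041 with TMM). Muscle markers summed to 2383 to 4589 CPM in mes-3 sperm, against 58.8 to 148 CPM in mes-3 male germlines. Intestine markers summed to 772 to 851 CPM in mes-3 sperm, against 18.1 to 44.7 CPM, and neuron markers to 24.1 to 57.6 CPM, against 6.01 to 9.39 CPM. Their part in these values was not tested.

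The offspring comparison asks whether the father's mes-3 genotype changed the oogenic germlines of genetically identical hermaphrodite offspring. No gene was called with edgeR, neither among the 10 (1 at an unadjusted p under 0.05, 0 by DESeq2) nor among the 11962 genes tested (0%). Over all genes, 1244 had an unadjusted p under 0.05, DESeq2 called 134, and the lowest edgeR adjusted p was 0.093. With 2 libraries per group the test had little to work with, and the values are given as a description.

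Both M+P- libraries lay below both M+P+ libraries for 3 of the 10 genes (cpg-1, cpg-2 and cbd-1). They lay above them for 3 (perm-2, egg-3 and egg-4), and the other 4 overlapped. How many of all genes tested separate in this way was not counted. With 2 libraries per group many can do so by order alone. For cpg-1, M+P- offspring had 1812 and 1977 CPM, against 2153 and 2192 CPM in M+P+ offspring. For cpg-2 they had 1394 and 1656 CPM, against 1868 and 1806 CPM. For cbd-1 they had 4124 and 4602 CPM, against 5295 and 4862 CPM. None of the 3 passed the test, with log2 fold changes of -0.24 (95% interval -0.52 to 0.05), -0.31 (-0.62 to 0.00) and -0.26 (-0.56 to 0.05) and edgeR adjusted p of 0.571, 0.486 and 0.563.

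In contrast, perm-2 had 156 and 91.1 CPM in M+P- offspring, against 73.9 and 61.2 CPM in M+P+ offspring. Its log2 fold change was 0.82 ± 0.24 (95% interval 0.30 to 1.34, edgeR adjusted p = 0.326, DESeq2 adjusted p = 0.0717). With the replicate number as a block the adjusted p was 0.00157, but the numbers are not known to mark shared batches here. Without M+P- replicate 2 the log2 fold changes were 1.13 for perm-2, -0.33 for cpg-1, -0.47 for cpg-2 and -0.37 for cbd-1. Leaving out M+P+ replicate 1 gave 0.99 for perm-2. Each of these fits had a lone library in 1 group, which was assumed to vary like those of the other group. For egg-3 the values were 291 and 296 CPM in M+P- offspring and 266 and 238 CPM in M+P+ offspring, with a log2 fold change of 0.18 (-0.12 to 0.48). Those of egg-4 were 375.3 and 384 CPM, against 375.1 and 334 CPM, with a log2 fold change of 0.06. The remaining genes, chs-1, egg-1, egg-2 and egg-5, overlapped between the groups and gave log2 fold changes between -0.17 (egg-1) and 0.00 (egg-5). Somatic markers differed too, with 175 to 319 CPM of muscle and 105 to 415 CPM of intestine markers in M+P- offspring, against 140.4 to 158 CPM and 57.5 to 74.4 CPM in M+P+ offspring, and their part in these values was not tested.

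**Figure D5:**
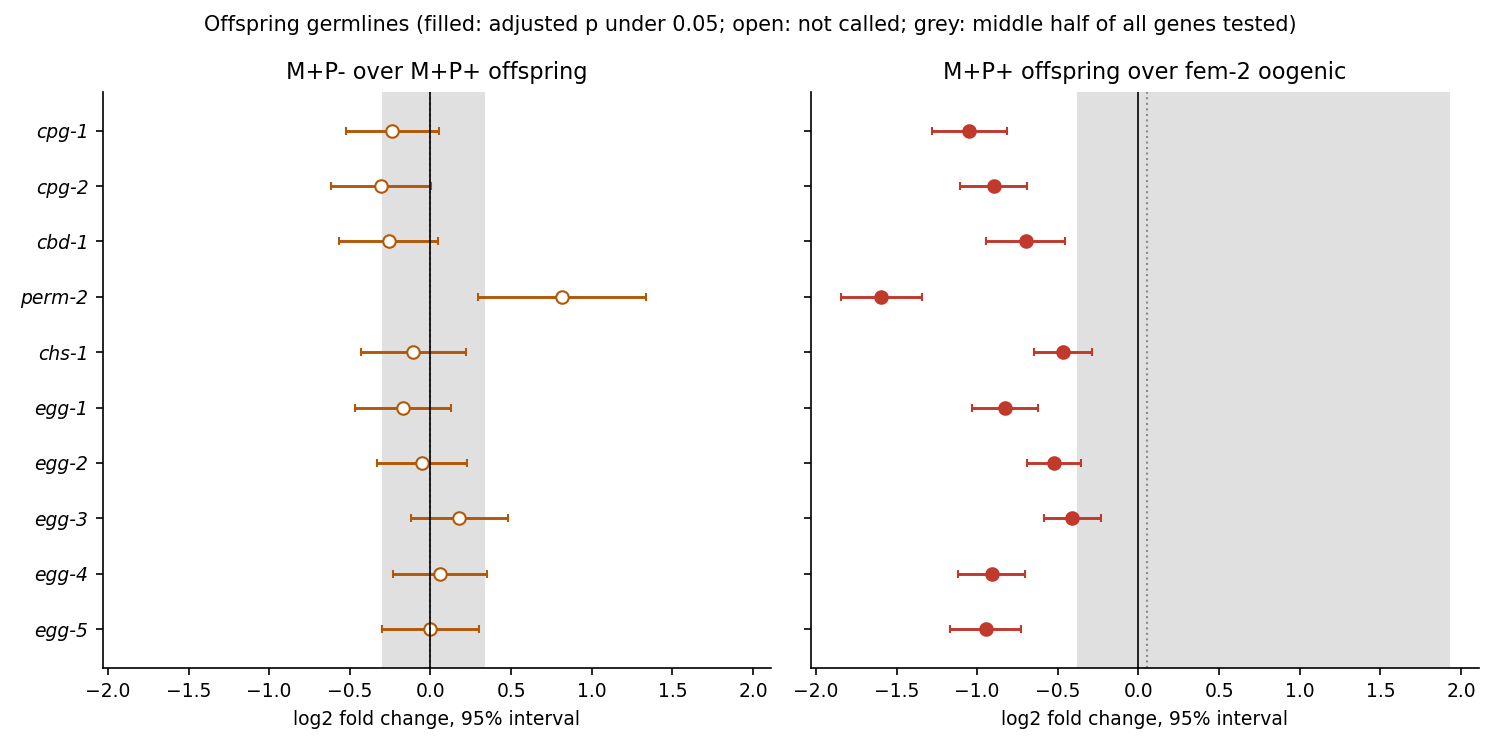
Log2 fold change with 95% interval of each gene in M+P- over M+P+ offspring germlines and in M+P+ offspring over fem-2 oogenic germlines. The grey band is the interquartile range of all genes tested and the dotted line their median. In the first panel 9 of 10 intervals include 0 and perm-2 is the exception, while in the second all 10 intervals lie below 0.

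The M+P+ offspring held less of these mRNAs than fem-2 oogenic germlines. In M+P+ offspring, edgeR called all 10 genes lower than in fem-2 oogenic germlines, where 22.7% of 10753 genes were called lower and 32.7% higher. The median of the 10 genes was -0.86 (log2), beside 0.05 over all genes. The largest difference was that of perm-2, with 73.9 and 61.2 CPM in M+P+ offspring, against 172, 151 and 158 CPM in fem-2 oogenic germlines (3.02-fold lower, edgeR adjusted p = 7.51e-06). It was followed by cpg-1, with 2153 and 2192 CPM, against 3545, 3719.6 and 3341 CPM (2.07-fold lower, adjusted p = 4.78e-05). The proteoglycan, EGG-1, EGG-4 and EGG-5 genes were between 1.78-fold (egg-1) and 2.07-fold (cpg-1) lower, and cbd-1 was 1.62-fold lower.

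The smallest differences were those of egg-3 (1.33-fold lower, edgeR adjusted p = 0.00131), chs-1 (1.38-fold, adjusted p = 0.000733) and egg-2 (1.44-fold). For egg-3 the CPM values overlapped, at 266 and 238 CPM in M+P+ offspring, against 252, 264 and 273 CPM in fem-2 oogenic germlines. Total-count scaling shifted the median gene by 0.36, gave 5009 genes higher and 877 lower (3511 and 2438 with TMM), and called 7 of the 10. The 3 that it did not call were chs-1 (edgeR adjusted p = 0.154), egg-2 (0.0575) and egg-3 (0.61). The groups differ in the mes-3 genotype, in temperature (15 °C throughout for the offspring) and in run tag, and these cannot be told apart. Oocyte markers summed to 4456 to 4594 CPM in M+P+ offspring, against 6294 to 6446 CPM in fem-2 oogenic germlines. Intestine markers summed to 57.5 to 74.4 CPM in M+P+ offspring, against 322 to 1048 CPM in fem-2, and hermaphrodite somatic gonad markers to 2024 to 2443 CPM, against 1397 to 1614 CPM. Their part in these values was not tested.

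The rest of the pathway was read from 38 other genes in 6 lists: supply of the shell polymer, chondroitin synthesis, other shell and barrier proteins, the lipid layer, cortical granules and exocytosis, and regulators of the oocyte-to-embryo switch. In N2 males, 21 of 37 tested were called lower than in N2 oogenic germlines and 6 higher, beside 22% and 38.3% of all genes tested. For him-8 against fem-2 it was 26 of 38 lower and 4 higher, beside 30.4% and 33.8%. The median log2 fold changes were -1.14 and -1.27. Among the other shell and barrier proteins 5 of 6 were lower in both pairings, among the regulators 6 of 8 and 7 of 8, and among the chondroitin synthesis genes 6 of 9 and 7 of 9. Cortical granule and exocytosis genes, which serve secretion in many cells, gave 0 of 5 lower in N2 and 2 of 5 for him-8 against fem-2.

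The 3 with the largest change were the same in both pairings. The proteoglycan gene cpg-3 had 1.18 and 6.15 CPM in N2 males, against 442 to 492 CPM in N2 oogenic germlines. Its log2 fold change was -6.10 ± 0.40 in N2 (edgeR adjusted p = 3.51e-06) and -6.37 ± 0.21 for him-8 against fem-2. Next came perm-4, the chromosomal neighbour of perm-2 whose product works with PERM-2, at -5.49 ± 0.42 and -5.30 ± 0.59. The third was oma-2, which encodes a zinc-finger protein of oocyte maturation, at -4.07 ± 0.33 and -4.28 ± 0.13.

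In mes-3 male germlines 6 of 37 were called higher and 1 lower than in him-8 male germlines, beside 12.2% and 15.8% of all genes tested. The largest were the caveolin gene cav-1, at 4.74 ± 0.77 (edgeR adjusted p = 0.00347), and the barrier genes perm-1, at 0.90 ± 0.20, and perm-5, at 0.75 ± 0.18. The level of cav-1 was low, with 5.30 to 7.51 CPM in mes-3 males and 0 to 0.428 CPM in him-8 males, so its fitted size depends on the prior count. Between mes-3 and him-8 sperm edgeR called 0 of 35, and between M+P- and M+P+ offspring 0 of 38. At an unadjusted p under 0.05 there were 7 and 5 of them. In him-8 sperm 7 of 38 were higher and 3 lower than in him-8 male germlines (16.2% and 14.4% of all genes), led by cav-1, by the fatty acid synthase gene fasn-1 at 3.02 ± 0.87 and by the translational repressor gene gld-1 at -1.56 ± 0.25. In mes-3 sperm 5 of 38 were higher and 4 lower than in mes-3 male germlines (19% and 10.4% of all genes), led by rab-6.2 at 5.12 ± 1.16, fasn-1 at 3.80 ± 0.29 and perm-1 at -1.10 ± 0.32. In M+P+ offspring 25 of 38 were lower and 3 higher than in fem-2 oogenic germlines (22.7% and 32.7% of all genes), with fasn-1 at 1.21 ± 0.08, and the glucosamine-phosphate acetyltransferase genes gna-1 at 1.10 ± 0.41 and gna-2 at -0.95 ± 0.17.

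A search of 9340 other genes for the profile most like the mean of the 10 genes, by Pearson's r of log2(mean CPM + 1) over the 9 group means, named Y45G5AL.1 (r = 0.9989), cpg-3 (0.9985), rme-2 (0.998), puf-11 (0.9977) and T24D1.3 (0.9975). The product of rme-2 is the yolk receptor of the oocyte. The 10 genes themselves gave r between 0.9597 (perm-2) and 0.9983 (cpg-2). These values are a description over 9 points that share libraries and fall into a high and a low set. Mean CPM of rme-2 was 118 in N2 males, 202 in him-8 males and 91.5 in him-8 sperm, against 2272 in fem-2 and 2212 in N2 oogenic germlines, a course close to that of cpg-1 and cpg-2.

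Across the 9 groups the levels thus fell into a high block of oogenic and offspring germlines and a low block of males and sperm for all 10 genes. In the high block the fem-2 and N2 oogenic groups overlapped for every gene. For cbd-1 the order of mean CPM was fem-2 (6483), N2 oogenic (6048), M+P+ (5079) and M+P- offspring (4363), with overlap between the first 2 groups and none between later neighbours. Below them came mes-3 (729), N2 (551) and him-8 (546) male germlines and mes-3 sperm (469), which overlapped in order, and him-8 sperm (199.96), which did not overlap mes-3 sperm. For egg-1 the male and sperm groups (45.9 CPM in him-8 males down to 13.2 CPM in him-8 sperm) all overlapped their neighbours. For perm-2 the low groups had mean levels of 0.717 CPM (mes-3 males) to 4.72 CPM (him-8 sperm) and could not be ordered.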

How the data were processed

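Total RNA from dissected distal gonad arms or collected sperm was sequenced as single-end reads of 50 bases. The authors aligned the reads with TopHat2 to the WS220 transcriptome and deposited HTSeq counts per gene for each library. They also deposited mean RPKM values of the him-8 male, N2 male and oogenic germlines. The RPKM columns that the authors deposited were used here only to recover 1 length per gene, 9890 lengths in all, and RPKM per library was computed from counts and those lengths. The authors' columns of log2 fold changes and adjusted p-values from DESeq2 were not used. Strand settings of the counting are not given in the sources used here. The 5 summary lines of each HTSeq file were left out. Reads in no feature were 3.55 to 18.8% and ambiguous reads 1.59 to 3.11% of each library.

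Gene symbols were taken from Ensembl release 115 by sequence name, where 44933 identifiers matched 1 gene, 3 matched several and 525 none. The counts follow an older annotation than that release, so no coordinates are given. Of 51 marker symbols 50 matched (7 of 8 for spermatogenic cells, without trp-3).

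Each comparison was fitted over its own groups with edgeR 4.0.16 (filterByExpr, TMM, glmQLFit and glmQLFTest, R 4.3.3), with Benjamini-Hochberg adjustment over all genes tested and a threshold of 0.05. Printed fold changes use a prior count of 0.125. The alternatives were RLE factors, total counts, no count filter, DESeq2 1.42.0, the replicate number as a block, length offsets (lowess span 0.3), within-run fits, a joint fit of all 25 libraries and leaving out each library. The 2 tests of differences between effects and the left-out libraries for RPKM ratios were added after seeing the data. The fits were tested on simulated counts. Intervals are 95%, and those of counts cover counting error only. Sequencing runs were read from tags in the names of the count files. The labels give no run or date, so what the tags mark is not known. Depth ran from 1078195 to 18617543 counts, so a floor of 3 counts lay between 0.161 and 2.78 CPM. The 24 replicate pairs differed by more than sampling noise (chi-square per degree of freedom 2.88 to 50.1).

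The 10 genes, the pathway lists and the markers were chosen with earlier results of these data known. All 10 genes are named in every comparison, with the 3 pathway genes of largest change among those called and the 5 genes most alike in profile. Same-numbered fem-2 and N2 oogenic libraries deviated together (correlations 0.117 to 0.158). Their main fit was still unpaired, and pairing entered only through the replicate block. Same-numbered M+P- and M+P+ libraries also deviated together (0.327, against -0.327 for other numbers). With 2 libraries per group these values can only be equal and opposite, so they cannot show pairing. In the other comparisons same-numbered libraries did not all correlate positively. The RNA sequences of the genes were not used here.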

Additional observations from a re-analysis of the deposited data

Results flagged for a closer look

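In the him-8 male germlines, the group with 4 libraries, replicate 2 lay far from the other 3 in 5 of 25 sets of values examined. Chance marks about 1 in 20 of independent sets. These sets came from the same 4 libraries and shared genes, so 5 of 25 cannot be judged against that rate. Its cpg-1 level was 249.8 CPM, against 356 to 361 CPM in the other him-8 males. Its marker sums were 2542 CPM for muscle (others 118 to 141), 495 CPM for intestine (24.5 to 51.1) and 913 CPM for hypodermis (32.3 to 60.6). Its oocyte markers summed to 395 CPM (others 512 to 525).

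The mes-3 effect differed between sperm and male germlines for 2 pathway genes in edgeR's test of the difference. For the caveolin gene cav-1 the log2 difference was -4.36 (adjusted p = 0.0365), on levels of at most 17.7 CPM in any male or sperm library, and for rab-11.1, a small GTPase needed for cortical granule release, it was 1.21 (adjusted p = 0.0452).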

How the results depend on the processing

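All 10 genes stayed lower in males, and called, in every alternative run for N2 males against N2 oogenic germlines (110 values) and for him-8 males against fem-2 oogenic germlines (130 values). Of 1462 values of the 10 genes over all comparisons and alternatives, 1332 kept their sign and side of the threshold, 18 lost and 38 gained a call, and 74 changed sign, none of them called. The depth limits perm-2 in males and sperm (0 to 21 counts a library) and the lowest egg-4 count in him-8 sperm (10). The causes of the changes below were not tested.

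With total counts, 2 of the 10 genes were called for mes-3 against him-8 males and 2 for mes-3 sperm against mes-3 males (1 with TMM in each). Sign changes were chs-1 0.12 and egg-4 0.010 (mes-3 against him-8 males), chs-1 0.0071 (sperm of the same strains), egg-5 0.038 (M+P- against M+P+), cpg-2 -0.073 (mes-3 sperm against mes-3 males), egg-3 -0.0077 (fem-2 against N2), and egg-2 -0.11 and egg-3 -0.16 (difference of sex effects). RLE factors turned egg-5 to 0.0092 for M+P- against M+P+.

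Without a count filter, 3 of the 10 genes were called for mes-3 against him-8 males, 3 for mes-3 sperm against mes-3 males and 2 (0 with it) for the difference of mes-3 effects. Over all genes the calls became 15 (0) for M+P- against M+P+, 116 (13) for fem-2 against N2, 12 (0) for him-8 against N2 males, 13197 (5949) for M+P+ against fem-2, 18 (1) for the difference of sex effects and 804 (279) for that of mes-3 effects. For M+P- against M+P+, egg-2 was 0.017 and egg-5 0.064. DESeq2 called 3 of the 10 genes for mes-3 against him-8 males and 1 for the difference of mes-3 effects, and over all genes 134, 27, 14, 10 and 824 for M+P- against M+P+, fem-2 against N2, him-8 against N2 males and the differences of sex and mes-3 effects. It gave egg-2 0.044 and egg-5 0.090 for M+P- against M+P+.

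With the replicate block, the calls over all genes were 1609 (2504 without it) for mes-3 against him-8 males, 375 (865) for their sperm, 543 (0) for M+P- against M+P+ with 1 of the 10 genes, 1067 (2643) for him-8 sperm against him-8 males with 2 (4) of the 10 (egg-1 and egg-4 were lost), and 0 (1) for the difference of sex effects. It left 0 of the 10 for mes-3 sperm against mes-3 males. Sign changes were egg-5 0.0040 (M+P- against M+P+), chs-1 -0.037 (him-8 against N2 males) and chs-1 0.051 (difference of sex effects). For fem-2 against N2, whose main fit was unpaired, the block called 17 genes (13 without) and none of the 10.

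Length offsets gave 1530 genes and 3 of the 10 for mes-3 against him-8 males, with chs-1 called lower (-0.57, edgeR adjusted p = 0.0178) and sign changes, not called, of cbd-1 to -0.27 and egg-5 to -0.17. Against the him-8 libraries of run E, 2 of the 10 were called, and against those of run D chs-1 was 0.12. All 25 libraries in 1 fit called 10 genes for M+P- against M+P+.

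Leaving out each library in turn gave the following lowest and highest numbers of genes called: 951 (without mes-3 male replicate 3) to 2949 for mes-3 against him-8 males, 280 (without mes-3 sperm replicate 2) to 851 for their sperm, 23 to 583 (without M+P- replicate 2) for M+P- against M+P+, 1335 (without him-8 male replicate 1) to 3502 for him-8 sperm against him-8 males, 1958 to 2975 for mes-3 sperm against mes-3 males, 5 to 108 (without N2 oogenic replicate 3) for fem-2 against N2, 0 to 61 (without him-8 male replicate 2) for him-8 against N2 males, and 0 to 38 and 148 to 430 for the differences of sex and mes-3 effects. Of the 10 genes, 1 to 2, 0 to 1, 0 to 4, 3 to 7 and 0 to 2 were called in the first 5 of these, and 0 to 2 for the difference of mes-3 effects.

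Uncalled log2 fold changes that changed sign when a library was left out ranged as follows. For mes-3 against him-8 males they were chs-1 -0.20 to 0.020 and egg-5 -0.16 to 0.28, and for their sperm cpg-1 -0.54 to 0.50. For M+P- against M+P+ they were chs-1 -0.31 to 0.10, egg-4 -0.028 to 0.18 and egg-5 -0.12 to 0.16. For him-8 sperm against him-8 males it was perm-2 -0.74 to 0.76. For mes-3 sperm against mes-3 males they were cpg-2 -0.070 to 0.41, egg-1 -0.61 to 0.18, egg-2 -0.61 to 0.054 and egg-4 -0.54 to 0.049. For fem-2 against N2 they were cpg-2 -0.038 to 0.24, perm-2 -0.49 to 0.31, chs-1 -0.079 to 0.0092, egg-2 -0.020 to 0.14 and egg-3 -0.017 to 0.073. For him-8 against N2 males they were cbd-1 -0.28 to 0.17, perm-2 -0.43 to 2.39, chs-1 -0.12 to 0.60, egg-1 -0.0016 to 0.76 and egg-2 -0.14 to 0.34. For the difference of sex effects they were perm-2 -2.32 to 0.41, chs-1 -0.53 to 0.10, egg-1 -0.51 to 0.19, egg-2 -0.18 to 0.25, egg-3 -0.10 to 0.18 and egg-5 -0.65 to 0.075, and for that of mes-3 effects perm-2 -1.37 to 1.88, chs-1 -0.44 to 0.01 and egg-3 -0.15 to 0.27.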

Other observations

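Set against egg-3 in the same library, the other shell genes shifted between groups by different amounts. The RPKM ratio of chs-1 to egg-3 averaged 1.58 in M+P- and 1.94 in M+P+ offspring germlines, 2.02 in fem-2 and 2.11 in N2 oogenic germlines. It was 0.779 in mes-3, 0.644 in him-8 and 0.609 in N2 male germlines, and 0.356 in mes-3 and 0.392 in him-8 sperm. The ratio of perm-2 to egg-3 averaged 1.06 in M+P- and 0.670 in M+P+ offspring germlines, against 1.53 in fem-2 and 1.83 in N2 oogenic germlines, where the N2 libraries alone spread from 0.921 to 2.89. No test was made of these ratios.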
